A study of Mus musculus with 14 samples.

Results

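The genes described here are the mammalian diacylglycerol kinases, the enzymes that phosphorylate the membrane lipid diacylglycerol to phosphatidic acid. They were found by their symbols in a table of counts from mouse cortex, and all 10 listed members (Dgka, Dgkb, Dgkd, Dgke, Dgkg, Dgkh, Dgki, Dgkq, Dgkz and Dgkk) were among its 23412 genes. The study compared mice lacking Fmr1, the X-linked gene of the RNA-binding protein FMRP, with controls. Control mice carried Rpl22flox/flox;CamKCre+, and the knock-out (KO) mice carried Fmr1X-Y together with the same floxed Rpl22 and Cre alleles, so the control group was not wild type at Rpl22. The labels give no age and name no pooling of animals. Total RNA was sequenced from 4 controls (mice 1, 3, 6 and 8) and 4 KO mice (mice 2, 4, 5 and 7), and ribosome footprints from 3 controls (mice 1, 3 and 9) and 3 KO mice (mice 2, 4 and 10). A CamK promoter drives Cre mainly in forebrain excitatory neurons, but the protocols mention no pull-down of tagged ribosomes, so the counts come from all cells of the lysed tissue.

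Diacylglycerol is released at the membrane when Gq-coupled receptors, among them the group I metabotropic glutamate receptors, switch on phospholipase C. It recruits proteins with a C1 domain, such as protein kinase C, and diacylglycerol kinases end this signal by converting it to phosphatidic acid, itself a signalling lipid and a precursor for the rebuilding of phosphoinositides. FMRP binds many neuronal mRNAs and is best known for holding back their translation, and Dgkk has been described as one of its mRNA partners in neurons. The kinases share a catalytic domain and differ in their regulatory parts. Dgka, Dgkb and Dgkg encode the calcium-regulated enzymes with EF hands. Dgkd, Dgkh and Dgkk encode enzymes with a pleckstrin homology domain, Dgkz and Dgki enzymes with ankyrin repeats and a MARCKS-like domain, Dgkq an enzyme with an extended set of C1 domains, and Dgke a membrane-anchored enzyme that prefers diacylglycerol carrying arachidonic acid.

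The start regions of Dgkg, Dgkb and Dgke are printed because these 3 members were called in ribosome footprints, as described below. Each window runs from 250 bases before to 50 bases after the RefSeq transcription start (assembly GRCm38.p6), and is given 5′ to 3′ on the gene's strand. Capitals mark the CRE half-site TGACG, the E-box CACGTG and the GC box GGGCGG on either strand. The windows are chr16:22657182-22657481 (minus strand) for Dgkg, chr12:37879924-37880223 (plus strand) for Dgkb and chr11:89060699-89060998 (minus strand) for Dgke.
Dgkg: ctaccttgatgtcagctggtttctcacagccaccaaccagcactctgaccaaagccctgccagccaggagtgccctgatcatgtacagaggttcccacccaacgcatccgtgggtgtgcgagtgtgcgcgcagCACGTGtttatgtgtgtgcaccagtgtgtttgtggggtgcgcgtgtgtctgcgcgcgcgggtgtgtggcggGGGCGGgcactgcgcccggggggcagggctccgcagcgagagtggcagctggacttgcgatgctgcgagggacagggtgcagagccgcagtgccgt
Dgkb: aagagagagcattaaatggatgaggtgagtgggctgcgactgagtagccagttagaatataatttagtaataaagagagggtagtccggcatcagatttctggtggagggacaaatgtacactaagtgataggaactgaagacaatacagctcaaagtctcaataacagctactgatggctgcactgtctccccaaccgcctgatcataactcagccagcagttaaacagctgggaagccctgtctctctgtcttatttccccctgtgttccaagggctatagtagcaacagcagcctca
Dgke: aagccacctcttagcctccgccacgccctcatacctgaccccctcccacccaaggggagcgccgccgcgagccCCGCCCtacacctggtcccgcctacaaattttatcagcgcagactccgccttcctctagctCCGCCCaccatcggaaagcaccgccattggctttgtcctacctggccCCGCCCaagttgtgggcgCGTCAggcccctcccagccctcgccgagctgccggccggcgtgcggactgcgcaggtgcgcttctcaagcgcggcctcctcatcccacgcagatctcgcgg

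GC content was 65.0% in the Dgkg window, 46.3% in the Dgkb window and 68.3% in the Dgke window, against a median of 52.7% over 32851 mouse windows of the same length. The Dgkg window held 1 E-box and 1 GC box, the Dgke window 1 CRE half-site and 3 GC boxes, and the Dgkb window held none of these letters. Among all windows, 20.8% held the CRE half-site, 7.15% the E-box and 35.7% the GC box. The full CRE (TGACGTCA) and the binding letters of the EGR factors (GCGTGGGCG) were in none of the 16 windows of the 10 kinases, and in 1.79% and 0.612% of all windows. These matches describe the letters and not the binding of any factor.

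Library totals were 8847547 to 11371851 counts in RNA and 4124065 to 6033030 in footprints. Fmr1 matched the labels in every library, at 71.4 to 90.0 CPM (the standard depth-scaled count, with TMM factors) in control RNA and 18.1 to 23.4 CPM in KO RNA. Its footprints were at 111 to 115 CPM in controls and 5.84 to 8.56 CPM in KO mice. Some libraries of a genotype were much alike. RNA pairs among KO mice 2, 4 and 7 differed with a chi-square over its degrees of freedom between 1.18 and 1.32, where sampling noise alone gives about 1. The other 9 same-genotype RNA pairs lay between 1.99 and 11.8, and the 6 footprint pairs between 1.15 and 1.42. The p-values measure the spread between these libraries, part of which may be technical. Markers of several cell types moved with genotype. Of the immediate early genes, 8 of 8 were called higher in RNA and in footprints, though their summed RNA overlapped (238 to 509 CPM in controls, 457 to 1071 in KO mice). Sums over the other lists rest mostly on their highest counts, so the calls within each list stand beside them. The excitatory neuron sum was higher in KO RNA (2633 to 2929 CPM, against 2050 to 2330), with 2 of 5 genes called higher and none lower. It was lower in KO footprints (4137 to 4262 CPM, against 4390 to 4496), where Camk2a averaged 2866 CPM, against 3162, while 2 of the 5 were called higher and 1 lower. In KO RNA the oligodendrocyte sum (3711 to 4072 CPM, against 4311 to 4795, 1 of 5 called lower) and the hypothalamic sum (15 to 21.2 CPM, against 34.4 to 65.3, 3 of 5 called lower) were lower. In KO footprints the astrocyte sum was lower (1520 to 1538 CPM, against 1635 to 1678, 2 of 5 called lower), as was the choroid plexus sum (5.71 to 11.2 CPM, against 12.5 to 14.4, 1 of 3 called lower). The endothelial sum was also lower there (141 to 150.3 CPM, against 152 to 158) through Cldn5 alone (48.5 CPM, against 63.8), with the other 3 of 4 genes higher on average. The inhibitory neuron sum was higher in KO footprints (1698 to 1724 CPM, against 1625 to 1671), with 3 of 6 genes called higher and 1 lower. Their part in the kinase values was not tested. Choroid plexus markers stood out in the RNA of control mouse 8 (281 CPM) and KO mouse 5 (119 CPM), against 6.54 to 20.04 CPM in the other 6 RNA libraries. In bulk tissue, fewer cells of a type cannot be told apart from less RNA per cell.

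The genotypes were compared for each gene with edgeR's quasi-likelihood test over all genes, and a gene is called where its Benjamini-Hochberg adjusted p is under 0.05. Of the 10 kinases, all passed the filter on low counts in RNA and 9 did in footprints, where Dgkk had too few counts. In RNA 1 of 10 was called, Dgkg, lower in KO mice, where 7.41% of all 13507 genes were called, 3.53% higher and 3.88% lower. In footprints 3 of 9 were called, with Dgkg and Dgkb lower and Dgke higher, where 25.5% of 12158 genes were called, 13.6% lower and 11.9% higher. In translational efficiency (TE, the genotype effect on footprints relative to that on RNA) none of 9 was called, where 7.81% of 12145 genes were called, 3.40% higher and 4.41% lower. By edgeR, 1 of the 9 (Dgki) had an unadjusted TE p under 0.05, as did 2805 of all 12145 genes, and DESeq2 also called none of the 9. Among the kinases the median log2 fold change was -0.0026 for RNA, where all genes had -0.0013. It was -0.049 for footprints, where all genes had 0.0055, and -0.078 for TE, where all genes had -0.011. With 9 or 10 members these counts lie near the background, so the results below are those of single members and not of the family.

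**Figure D1:**
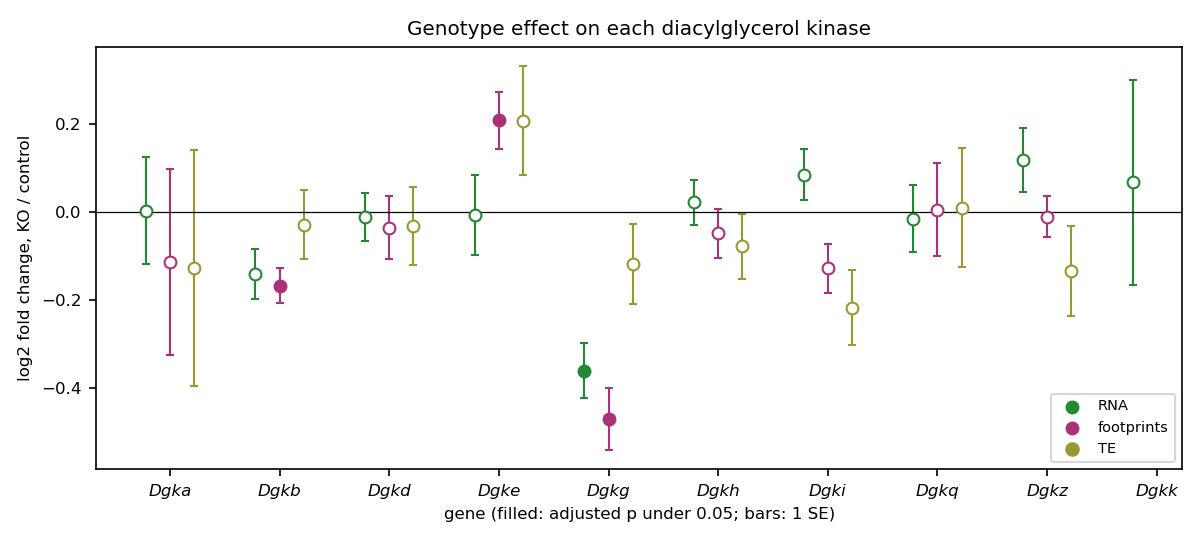
Log2 fold change (KO over control) of each kinase in RNA, in footprints and in TE, with bars of 1 standard error; filled points have an adjusted p under 0.05. Dgkg lies lowest in both RNA and footprints, Dgke is the 1 filled point above 0, and Dgkk has no footprint or TE value because its footprints were too few.

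Dgkg encodes the gamma isoform, a calcium-regulated kinase that is abundant in brain. Its RNA was at 80.4, 79.7, 81.0 and 79.6 CPM in control mice 1, 3, 6 and 8. In KO mice 2, 4, 5 and 7 it was at 61.9, 57.3, 68.7 and 62.2 CPM. The control libraries were nearly level, KO mouse 5 was the highest of its group, and the genotypes did not overlap. Dgkg RNA fell by 22.1% (log2 fold change -0.36, SE 0.063; adjusted p = 0.00463 by edgeR). Footprints of Dgkg were at 87.8, 85.0 and 81.0 CPM in control mice 1, 3 and 9. In KO mice 2, 4 and 10 they were at 61.6, 61.5 and 59.6 CPM. Again the groups did not overlap. They fell by 27.8% (log2 fold change -0.47, SE 0.070; adjusted p = 3.54e-08 by edgeR), which put Dgkg at rank 568 from the lowest among 12158 genes. The TE value was -0.12 ± 0.091 (SE, adjusted p = 0.480, edgeR), with an approximate 95% interval of -0.30 to 0.060. The test of a difference between the footprint and RNA falls of Dgkg thus did not pass, and its interval spans 0.

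The RNA call of Dgkg was lost where KO mice 2, 4 and 7 were summed to 1 library (-0.32, adjusted p = 0.137, edgeR), where control mice 1 and 3 were summed as well (-0.32, adjusted p = 0.240), and in mice 5 to 8 alone (-0.30, adjusted p = 0.246). It was kept without any single mouse (adjusted p between 0.00113 and 0.0299), and in the RNA columns whose header ends in exon (-0.34, adjusted p = 0.00600). The footprint call was kept under all 12 alternatives run (adjusted p between 1.42e-09 and 0.000129). No alternative summed footprint libraries, as was done for RNA of KO mice 2, 4 and 7. Same-genotype footprint pairs were about as alike (1.15 to 1.42) as those RNA libraries (1.18 to 1.32). The call under such sums was not tested. Hypothalamic markers moved in the same direction: summed over 6 genes they were at 92.0 to 102 CPM in control footprints and 33.5 to 35.3 CPM in KO footprints, and of 5 tested, 5 were called lower in footprints and 3 in RNA. Of these genes, Agrp was at 0 in 3 KO and 2 control footprint libraries and Hcrt in 1 KO RNA library. Other lists were also lower in KO mice, such as astrocytes in footprints and oligodendrocytes in RNA, and some were higher, as given above. The part of any of these lists in the Dgkg values was not tested.

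Dgkb encodes the beta isoform, a neuronal kinase best known for its high level in striatum and found at dendritic spines. Its RNA was at 257, 249, 249 and 275 CPM in control mice 1, 3, 6 and 8. KO mice 2, 4, 5 and 7 had 231, 227, 252 and 223 CPM. KO mouse 5 lay above 2 of the controls, so the groups overlapped, and the log2 fold change was -0.14 ± 0.057 (SE, adjusted p = 0.141, edgeR). Without KO mouse 5 it was -0.18, which was called (adjusted p = 0.0426, edgeR), as was the value of mice 1 to 4 alone (-0.14, adjusted p = 0.0216). Dgkb footprints were at 237, 245 and 249 CPM in control mice 1, 3 and 9. In KO mice 2, 4 and 10 they were at 230, 218 and 206 CPM. All 3 KO libraries lay below all 3 controls, though KO mouse 2 was close to control mouse 1. Dgkb footprints fell by 10.96% (log2 fold change -0.17, SE 0.041; adjusted p = 0.000792 by edgeR). This call was lost in 1 fit over all 14 libraries, where the value was nearly the same and its error larger (-0.17, SE 0.061; adjusted p = 0.0699, edgeR). On plain library sizes KO mouse 2 lay above control mouse 1 (234 against 232 CPM), and the log2 fold change of Dgkb was -0.11, which was still called (adjusted p = 0.0365, edgeR). TE of Dgkb was at -0.029 ± 0.079 (SE, adjusted p = 0.865, edgeR). Of 7 striatal markers, 4 were called higher and 1 lower in footprints. None was called in RNA by edgeR (1 at an unadjusted p under 0.05, as were 3149 of all 13507 genes). The part of these markers in the Dgkb values was not tested. The 1 called lower, Ppp1r1b, averaged 404 CPM in control footprints and 365 CPM in KO footprints. Summed, the 7 were at 795 to 818 CPM in control footprints and 796 to 837 CPM in KO footprints, and in RNA at 702 to 772 CPM and 766 to 785 CPM.

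Dgka, the alpha isoform, is best known from T cells. It had few counts, at 7.05 to 9.27 CPM in control RNA and 7.67 to 8.60 CPM in KO RNA. Its footprints ranged from 5.51 to 10.9 CPM in controls and from 5.94 to 9.20 CPM in KO mice. The genotypes overlapped in both assays. The footprint value of -0.11 ± 0.21 (SE, adjusted p = 0.751, edgeR) has an approximate 95% interval of -0.53 to 0.30, so a change as large as that of Dgkg was not detectable for Dgka at this depth.

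Dgke encodes the epsilon isoform, whose substrate preference ties it to the phosphoinositide cycle. Its footprints were at 82.1, 80.4 and 75.8 CPM in control mice 1, 3 and 9. KO mice 2, 4 and 10 had 91.8, 88.0 and 94.7 CPM. Each KO library lay above each control library. Dgke footprints rose by 15.5% (log2 fold change 0.21, SE 0.065; adjusted p = 0.0101 by edgeR). The call was lost with DESeq2 (0.21, SE 0.084; adjusted p = 0.0739) and in 1 fit over all 14 libraries (0.20, SE 0.097; adjusted p = 0.181, edgeR). It was also lost without mouse 9 (0.17, adjusted p = 0.0654, edgeR) and without mouse 10 (0.18, adjusted p = 0.0709). Dgke RNA was at 74.8, 82.5, 74.6 and 68.9 CPM in control mice 1, 3, 6 and 8. KO mice 2, 4, 5 and 7 had 70.3, 68.6, 91.8 and 69.2 CPM, so KO mouse 5 lay far above the rest. The RNA log2 fold change was -0.0074 ± 0.091 (SE, adjusted p = 0.972, edgeR), and without KO mouse 5 it was -0.11 (adjusted p = 0.294).

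TE of Dgke was 0.21 ± 0.12 (SE, adjusted p = 0.341, edgeR) over all 14 libraries. With the mouse as a replicate block, which uses mice 1 to 4 that were in both assays, it was 0.32 and was called (adjusted p = 0.0229, edgeR). It was also called without KO mouse 5 (0.32, adjusted p = 0.0340). With KO mice 2, 4 and 7 summed it was 0.11 (adjusted p = 0.707, edgeR), and with control mice 1 and 3 summed as well 0.095 (adjusted p = 0.756). Within mice 1 to 4, the log2 ratio of footprint CPM to RNA CPM of Dgke was 0.13 and -0.036 in control mice 1 and 3, and 0.38 and 0.36 in KO mice 2 and 4. Both KO ratios lay above both control ratios. They come from the libraries of the block fit, so they are not a separate test of its call.

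**Figure D2:**
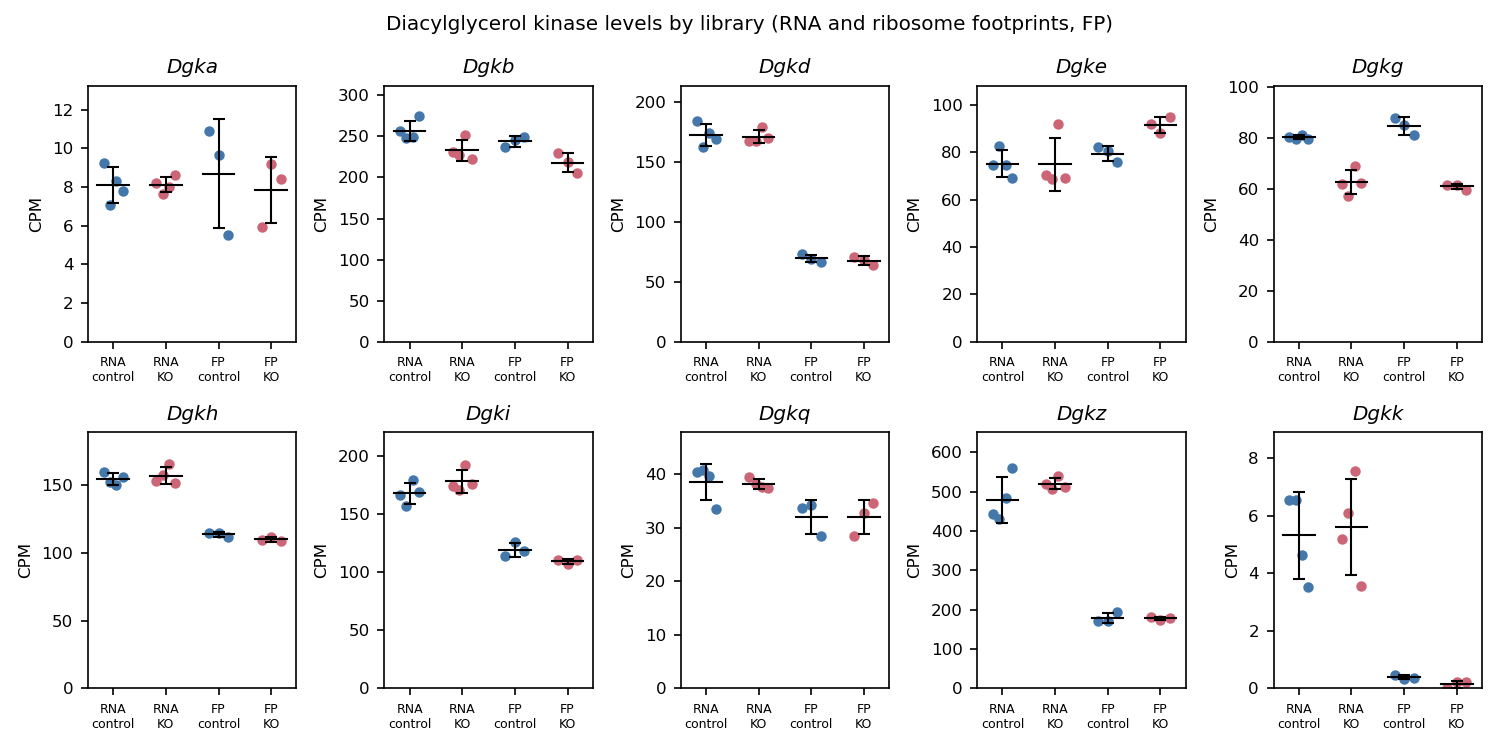
CPM of each kinase by library (y axes start at 0), with RNA of 4 control and 4 KO mice and footprints (FP) of 3 control and 3 KO mice; horizontal lines are means and bars are 1 SD. KO points lie below control points for Dgkg in both assays and, in footprints, for Dgkb, Dgki (not called) and Dgkk (too few counts to test). They lie above control points for Dgke in footprints, and 1 KO library (mouse 5, 91.8 CPM) stands out in Dgke RNA.

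Dgkz and Dgki, the zeta and iota isoforms, end in motifs that bind PDZ domains, and Dgkz is known to be held at synapses by PSD-95. Neither was called in RNA or footprints. Dgkz RNA was at 444, 430, 483 and 561 CPM in control mice 1, 3, 6 and 8. KO mice 2, 4, 5 and 7 had 520, 508, 540 and 513 CPM. Control mouse 8 was higher than every KO mouse and the other 3 controls were lower. The log2 fold change was 0.12 ± 0.073 (SE, adjusted p = 0.365, edgeR). It was called without control mouse 8 (0.20, adjusted p = 0.0187, edgeR) and in mice 1 to 4 alone (0.24, adjusted p = 2.23e-05). Dgkz footprints were at 170, 172 and 194 CPM in controls and 180, 173 and 180 CPM in KO mice, and the genotypes overlapped (-0.011 ± 0.046 SE on the log2 scale, adjusted p = 0.895 by edgeR).

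Dgki RNA was at 157 to 179 CPM in controls and 170 to 192 CPM in KO mice. Its footprints were at 114, 126 and 118 CPM in control mice 1, 3 and 9. KO mice 2, 4 and 10 had 110, 107 and 111 CPM. All 3 KO values lay below all 3 controls, but the log2 fold change (-0.13, SE 0.056) did not pass the threshold (adjusted p = 0.0815, edgeR). On plain library sizes the footprint groups overlapped, and the log2 fold change was -0.069 (adjusted p = 0.390, edgeR). TE was -0.22 ± 0.085 for Dgki (SE, adjusted p = 0.120, edgeR) and -0.13 ± 0.10 for Dgkz (SE, adjusted p = 0.478, edgeR). With the mouse as a replicate block both were called, at -0.25 for Dgki (adjusted p = 0.0317, edgeR) and -0.20 for Dgkz (adjusted p = 0.0339). That fit holds KO mice 2 and 4, whose RNA libraries were nearly alike. With KO mice 2, 4 and 7 summed neither was called (-0.26 and -0.16, adjusted p = 0.147 and 0.525, edgeR), nor with control mice 1 and 3 summed as well (-0.24 and -0.11, adjusted p = 0.180 and 0.648). In control mice 1 and 3 the log2 footprint to RNA ratio of Dgki was -0.55 and -0.32, and in KO mice 2 and 4 it was -0.66 and -0.67. For Dgkz these were -1.38 and -1.32, and -1.53 and -1.55. The KO ratios of these mice lay below the control ratios in both genes. These are the libraries that gave the calls, so the ratios are not a separate test. The same 8 libraries with no block gave 3 called kinases too (Dgke, Dgki and Dgkz), so the calls also appeared without the block when mice 5 to 10 were left out. Calls over all genes rose as well in these fits, to 1810 of 12145 with the block and 1806 of 12185 without it. Over all 14 libraries 949 of 12145 genes were called.

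Dgkd and Dgkh, the delta and eta isoforms, act in receptor trafficking and growth factor signalling. Their values moved little in either assay. Dgkd RNA was at 162 to 185 CPM in controls and 168 to 179 CPM in KO mice, and its footprints were at 66.8 to 73.1 and 63.8 to 70.8 CPM. Dgkh RNA was at 150 to 160 CPM and 152 to 166 CPM, and its footprints at 111 to 115 and 109 to 112 CPM. Log2 fold changes were -0.012 ± 0.055 in RNA and -0.036 ± 0.072 in footprints for Dgkd, and 0.021 ± 0.052 and -0.049 ± 0.056 for Dgkh (SE, adjusted p between 0.575 and 0.925, edgeR). The approximate 95% intervals of the footprint values were -0.18 to 0.10 for Dgkd and -0.16 to 0.061 for Dgkh, which leave out a fall of the size seen in Dgkg.

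Dgkq, the theta isoform, is known for roles in synaptic vesicle recycling. It was at 38.6 ± 3.39 CPM in control RNA and 38.1 ± 0.916 CPM in KO RNA (SD, n = 4 each), and at 32.1 ± 3.17 and 31.98 ± 3.13 CPM in footprints (SD, n = 3 each). The footprint log2 fold change (0.0050, SE 0.11; adjusted p = 0.979 by edgeR) had an approximate 95% interval of -0.20 to 0.21.

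Dgkk, the kappa isoform, lies on the X chromosome like Fmr1. Its RNA was at 6.55, 6.53, 4.65 and 3.51 CPM in control mice 1, 3, 6 and 8. KO mice 2, 4, 5 and 7 had 5.18, 6.10, 7.56 and 3.56 CPM. The groups overlapped over nearly their whole range, and the log2 fold change was 0.067 ± 0.23 (SE, adjusted p = 0.896, edgeR), with an approximate 95% interval of -0.39 to 0.52. It had 2, 2 and 2 footprint counts in control mice 1, 3 and 9, and 0, 1 and 1 in KO mice 2, 4 and 10. Every one of these is below the 3 counts that a count of 0 allows, which correspond to 0.51 to 0.713 CPM, so no fold between genotypes is given and a difference was not detectable at this depth.

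Dgkk RNA was better covered, with 206 counts in the control libraries and 224 in the KO libraries. Summed over libraries and scaled for depth, Dgkk footprints were 0.0719 of the RNA level in controls (exact 95% interval 0.0261 to 0.159, from 6 footprint and 206 RNA counts) and 0.0269 in KO mice (0.00324 to 0.0982, from 2 and 224 counts). The intervals cover counting error only, and they overlap. Of 13507 genes kept in RNA, 243 (1.80%) had a control ratio as low as that of Dgkk or lower. Dgkk RNA was thus counted in this tissue with few ribosome footprints in either genotype.

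The other kinases were spread over the footprint to RNA scale in control mice. As a log2 ratio of mean CPM, Dgkz stood at -1.42 ± 0.20 (SD, combining 3 footprint and 4 RNA libraries), at percentile 9.81 of 12145 genes, and Dgkd at -1.31 ± 0.10, at percentile 11.8. Dgki (-0.50 ± 0.11), Dgkh (-0.44 ± 0.047) and Dgkq (-0.27 ± 0.20) followed, below or near the median of all genes of -0.13. Dgkb (-0.076 ± 0.077), Dgkg (0.077 ± 0.060), Dgke (0.079 ± 0.12) and Dgka (0.10 ± 0.55) lay between percentiles 52.7 and 61.0. Neighbours in this order lay within 1 SD of each other, except across the gaps between Dgkd and Dgki and between Dgkb and Dgkg. Gene length cancels in this ratio, provided that both assays were counted over the same region.

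**Figure D3:**
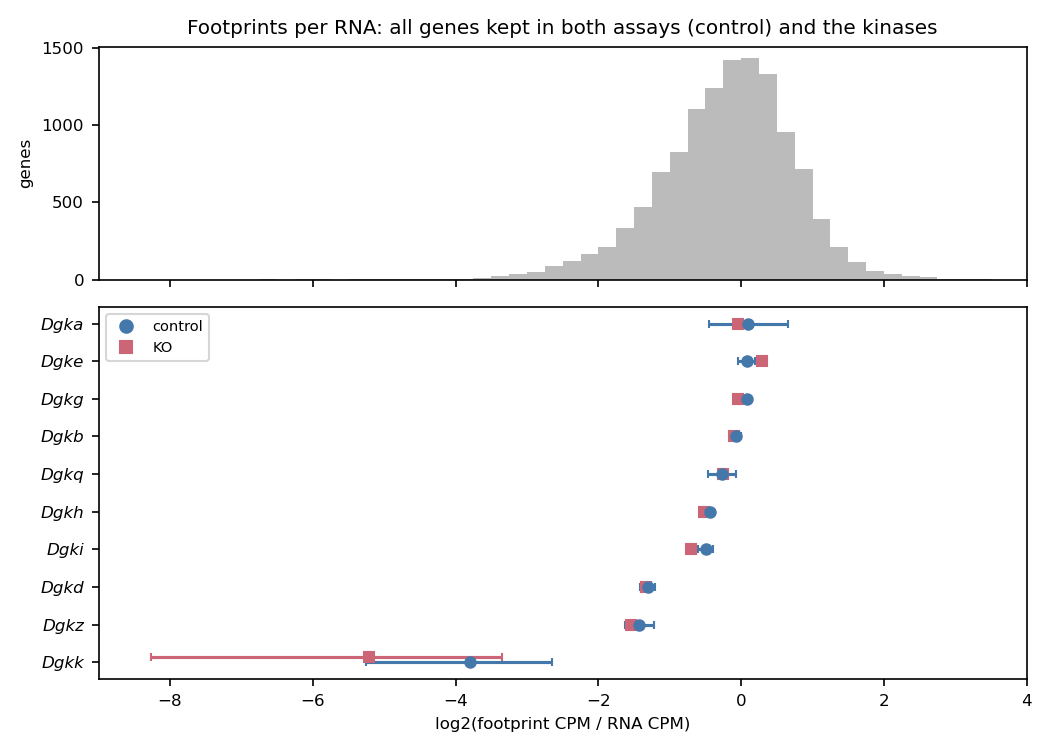
Upper panel, number of genes by log2 of footprint CPM over RNA CPM in control mice (12141 of 12145 genes fall on the axis and 4 outside it); lower panel, the kinases in control (circles) and KO mice (squares), with bars of 1 SD for controls, and exact 95% counting intervals for Dgkk. Dgkk, Dgkz and Dgkd lie at the low end, and Dgkb, Dgkg, Dgke and Dgka near the middle of all genes.

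The pathway around the kinases was described with lists of 67 genes, all of which were in the table. In RNA 5 of 64 tested were called, 3 higher and 2 lower, where 7.41% of all genes were called. In footprints 25 of 59 were called, 10 higher and 15 lower, where 25.5% of all genes were. In TE 4 of 59 were called, each lower in KO mice, where 7.81% of all genes were called. The RNA and TE counts lie near these shares. The pathway median was 0.036 for RNA (-0.0013 over all genes), -0.056 for footprints (0.0055 over all genes) and -0.10 for TE (-0.011 over all genes). On plain library sizes the footprint calls were 14 higher and 8 lower, and over all genes 66.3% of footprint calls were higher, against 46.7% with TMM (68.2% against 43.5% in TE). That scaling moved the median of all footprint values from 0.0055 to 0.065. Every called pathway gene kept its sign under every alternative run, but not its call. In footprints DESeq2 called 12 of the pathway genes and 1821 of all 12158 genes, and 1 fit over all 14 libraries called 9 of them and 1684 of all 12145 genes. The RNA count was between 1 and 8 without any 1 mouse, 1 with KO mice 2, 4 and 7 summed, 0 with control mice 1 and 3 summed as well (36 of all genes were called there) and 23 in mice 1 to 4 alone, where 3273 of all 13591 genes were called.

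Upstream of the kinases are the phospholipase C genes, which release diacylglycerol. In footprints 5 of 12 fell and none rose (median -0.17), where 13.6% of all genes were called lower and 11.9% higher. On plain library sizes 3 fell and none rose (median -0.11). Those that fell with TMM included Plcz1 (-1.57 ± 0.48, adjusted p = 0.00904), Plch1 (-0.66 ± 0.18, adjusted p = 0.00348) and Plcd4 (-0.37 ± 0.13, adjusted p = 0.0187; SE, edgeR), and the calls of Plcz1, Plch1 and Plcd4 were kept in 11, 12 and 6 of 12 alternatives. Plcz1, known from sperm, was also called in RNA (-1.06 ± 0.29 SE, adjusted p = 0.0425, edgeR), a call kept in 8 of 18 alternatives. Of the Gq family, Gna11 rose in footprints (0.22 ± 0.060 SE, adjusted p = 0.00353, edgeR). Neither of the diacylglycerol lipases, which make the endocannabinoid 2-arachidonoylglycerol from the same lipid, was called in the comparisons as reported, though 1 was called higher in footprints on plain library sizes. Dagla was at -0.17 ± 0.074 and Daglb at 0.14 ± 0.078 in footprints (SE, adjusted p 0.0873 and 0.206, edgeR).

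Protein kinase C enzymes bind diacylglycerol. In footprints 1 of their 7 genes rose and 3 fell (median -0.12), against 11.9% higher and 13.6% lower among all genes, and on plain library sizes 1 rose and 2 fell. Those that fell included Prkcd at -0.86 ± 0.15 (adjusted p = 1.91e-06) and Prkca at -0.12 ± 0.042 (adjusted p = 0.0198; SE, edgeR). The 1 that rose was the beta isoform Prkcb (0.12 ± 0.026 SE, adjusted p = 0.000141, edgeR), named here after its value was seen. The calls of Prkcd, Prkcb and Prkca were kept in 12, 11 and 5 of 12 alternatives. Of 11 other C1-domain effectors, 2 rose and 3 fell in footprints, beside the same shares over all genes, but on plain library sizes 3 rose and 1 fell. Those that rose, also named after their values were seen, were Rasgrp1, an activator of Ras (0.14 ± 0.031, adjusted p = 0.000163), and Chn1, a Rac-inhibiting chimaerin (0.10 ± 0.024, adjusted p = 0.000509; SE, edgeR). Those that fell were Prkd3, a protein kinase D (-0.49 ± 0.18, adjusted p = 0.0385), and the vesicle priming factors Unc13c (-0.41 ± 0.16, adjusted p = 0.0481) and Unc13a (-0.24 ± 0.032, adjusted p = 1.92e-09; SE, edgeR). Unc13c was also called in RNA (-0.27 ± 0.065 SE, adjusted p = 0.0232, edgeR), and Prkd3 in TE (-0.57 ± 0.16 SE, adjusted p = 0.0331, edgeR). The footprint call of Unc13a was kept in 12 of 12 alternatives, and those of Prkd3 and Unc13c in 5 and 4. The TE call of Prkd3 was kept in 7 of 19, and the RNA call of Unc13c in 11 of 18.

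Downstream, 1 of 4 genes for enzymes that turn phosphatidic acid back to diacylglycerol rose in footprints and 1 fell, near the 11.9% higher and 13.6% lower among all genes. Lpin2, a lipin phosphatase, fell in footprints (-0.33 ± 0.078, adjusted p = 0.000565) and in TE (-0.43 ± 0.098, adjusted p = 0.00843), and Ppap2b, a membrane lipid phosphatase, rose in footprints (0.16 ± 0.036, adjusted p = 0.000345; SE, edgeR). The TE call of Lpin2 was kept in 17 of 19 alternatives and lost with the mouse as a replicate block and in mice 1 to 4 alone. Among genes that rebuild phosphoinositides, 3 of 16 rose in RNA and none fell (median 0.12), where 3.53% of all genes were called higher. In footprints 5 of 15 rose and 3 fell, where 11.9% of all genes were called higher and 13.6% lower, and on plain library sizes 6 rose and 1 fell. In RNA those that rose were the phosphatidylinositol 4-kinase Pi4k2a (0.50 ± 0.068, adjusted p = 0.000991), the lipid transfer protein Pitpnm2 (0.22 ± 0.052, adjusted p = 0.0232) and the CDP-diacylglycerol synthase Cds1 (0.21 ± 0.059, adjusted p = 0.0468; SE, edgeR). These calls were kept in 17, 9 and 5 of 18 alternatives. In footprints the values furthest from 0 were those of the phosphatidylinositol 4-phosphate kinase Pip5k1c (0.38 ± 0.051, adjusted p = 2.26e-09), Pitpnm3 (-0.30 ± 0.089, adjusted p = 0.00680) and Pitpnb (0.27 ± 0.079, adjusted p = 0.00600; SE, edgeR). Their footprint calls were kept in 12, 9 and 8 of 12 alternatives. Pi4k2a and Pitpnm2 were lower in TE, at -0.43 ± 0.11 (adjusted p = 0.0135) and -0.36 ± 0.075 (adjusted p = 0.00469; SE, edgeR), calls kept in 13 and 19 of 19 alternatives. The TE call of Pi4k2a was among those lost with the mouse as a replicate block. None of the phospholipase D genes and none of the related ceramide, sphingosine and acylglycerol kinases was called, in 2 and 5 genes tested in RNA and 2 and 3 in footprints. At an unadjusted p under 0.05 by edgeR, 1 of the related kinases was found in footprints and none in RNA, and no phospholipase D gene in either. Over all genes, 4298 of 12158 passed that cutoff in footprints and 3149 of 13507 in RNA.

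**Figure D4:**
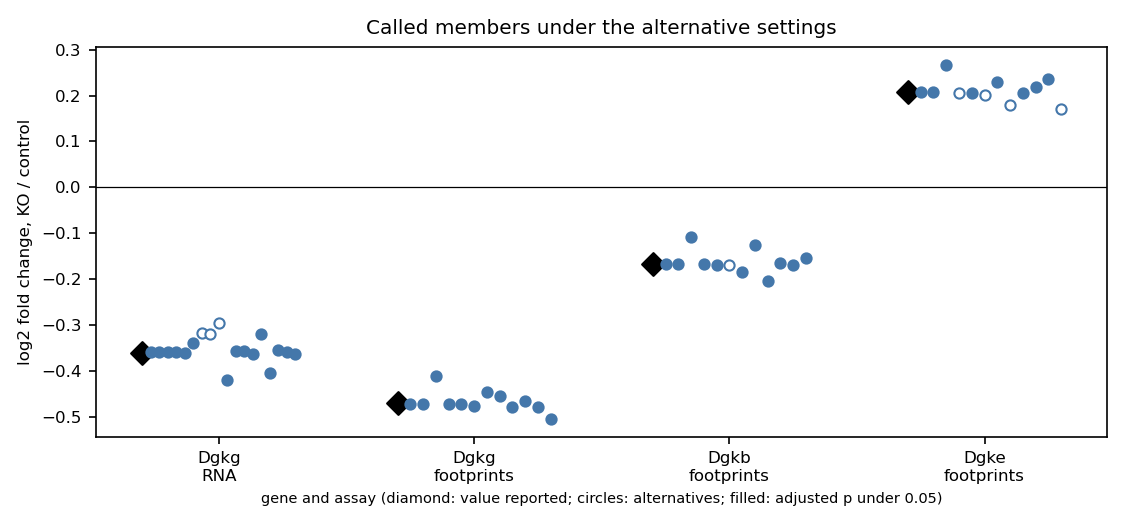
Log2 fold change (KO over control) of the 4 calls among the kinases, as reported (diamonds) and under each alternative setting (circles); filled symbols have an adjusted p under 0.05. Each value kept its sign, Dgkg in footprints was filled throughout, and open circles are the settings in which the Dgkg RNA, Dgkb footprint and Dgke footprint calls were lost.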

How the data were processed

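The authors deposited 1 table of raw whole-number counts per gene, with a column per library. RNA libraries have a second column whose header ends in exon, with a larger total. Per the submitters' processing notes, Bowtie2, STAR 2.5, featureCounts and Subread 1.4.6 and the builds mm9 and mm10 were used. Their roles, the annotation, the strand setting and the region counted are not given in the sources used here, so reads of overlapping genes may not be told apart. Per the labels' protocols, footprints came from monosomes of nuclease-digested lysates and RNA was depleted of ribosomal RNA. Groups and mouse numbers came from the labels. Unsuffixed RNA columns were used for RNA. Like the footprint columns, they were empty for 2849 genes.

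Counts were tested with edgeR 4.0.16 (R 4.3.3): TMM, filterByExpr at a minimum count of 10, quasi-likelihood F tests, two-sided, Benjamini-Hochberg adjustment over all genes tested. TE was the interaction of assay and genotype over 14 libraries. DESeq2 1.42.0 was an alternative. Standard errors came from the F statistic, and approximate 95% intervals from them. Mouse numbers pair the assays for mice 1 to 4, by the labels. Deviations of the same mouse from the group means correlated across genes at 0.0031, 0.011, 0.034 and -0.013. Pairs of different mice of a genotype lay between -0.033 and 0.024, and only mouse 3 lay above that range. The pairing used in the replicate block by mouse thus rests on the labels and not on these correlations. The functions were tested on simulated data.

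The kinases, lists and tests were chosen with earlier results of these data known. All 10 kinases are named, and up to 3 called genes with the largest change per pathway list. A result that this rule would name is not reported here. Levels were not compared between genes, and the planned search for genes of like pattern was not made, since coding lengths were not used here. No correlation across libraries is given, because libraries separate by genotype.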

Additional observations from a re-analysis of the deposited data

Results flagged for a closer look

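RNA levels of the 10 kinases and Fmr1 and the RNA totals were examined in both groups of 4 mice, 24 sets in all, for a library far from the rest. Chance alone marks about 1 in 20 such sets, and 2 were found. Dgke RNA was at 91.75 CPM in KO mouse 5, against 68.6 to 70.3 CPM in the other KO mice, a gap of 0.925 of the group's whole range. Dgkq RNA was at 33.54 CPM in control mouse 8, against 39.7 to 40.8 CPM in the other controls, a gap of 0.859 of the range. Both libraries also held the most choroid plexus marker RNA, 119 CPM in KO mouse 5 and 281 CPM in control mouse 8, whose part in these values was not tested.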

How the results depend on the processing

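Of the kinase values, every footprint and RNA fold change of Dgkg, Dgkb and Dgke in a called comparison kept its sign under all alternatives run. No fold change that turned sign was called. Counts of called genes depended on which libraries entered. In RNA, 79 genes (0 kinases) were called with KO mice 2, 4 and 7 summed, 36 (0) with control mice 1 and 3 summed too, 88 (0) in mice 5 to 8, 3273 (3) in mice 1 to 4, and 356 to 1763 (1 to 2) without 1 mouse. In footprints, 1821 were called by DESeq2, 1684 (1 kinase) in 1 fit over all 14 libraries, and 2558 to 2855 (2 to 3) without 1 mouse. In TE, the replicate block by mouse gave 1810 (3 kinases), mice 1 to 4 without it 1806 (3), the summed KO mice 543 (0), both sums 579 (0), and leaving out 1 mouse 419 to 1289 (0 to 1). The replicate block by title prefix changed no kinase call. On plain library sizes, Dgkg footprints in KO mice averaged 62.0 CPM, and Dgkh footprints 111.1 in controls and 111.8 in KO mice.

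RNA values turned sign in the exon columns (Dgka -0.032, Dgke 0.023, Dgkq 0.017, Dgkk -0.074), with KO mice summed (Dgkd 0.012, Dgke 0.090), with both sums (Dgkd 0.012, Dgke 0.11), in mice 5 to 8 (Dgkd 0.024, Dgke 0.16, Dgkq 0.037) and in mice 1 to 4 (Dgka -0.038, Dgkh -0.0019, Dgkk -0.20). Footprint values did so on plain library sizes (Dgkd 0.024, Dgkh 0.010, Dgkz 0.048) and in 1 fit over 14 libraries (Dgkq -0.0026). TE values did so on plain library sizes (Dgkb 0.038, Dgkd 0.034), with the block (Dgkb 0.020, Dgkd 0.0035, Dgkq -0.089), with both sums (Dgkq -0.0096), in mice 1 to 4 (Dgkb 0.018, Dgkd 0.013, Dgkq -0.093) and with exon columns (Dgkq -0.0031). Without 1 mouse, RNA values ranged over -0.059 to 0.077 (Dgka), -0.040 to 0.024 (Dgkd), -0.11 to 0.040 (Dgke), -0.0017 to 0.040 (Dgkh), -0.092 to 0.23 (Dgkk) and -0.075 to 0.012 (Dgkq). Footprint values ranged over -0.37 to 0.048 (Dgka), -0.068 to 0.0074 (Dgkd), -0.083 to 0.077 (Dgkq) and -0.044 to 0.050 (Dgkz), and TE values over -0.38 to 0.050 (Dgka), -0.069 to 0.014 (Dgkb), -0.072 to 0.013 (Dgkd) and -0.073 to 0.10 (Dgkq). Summing or leaving out libraries means fewer samples; otherwise the cause was not tested. Depth limits Dgkk in footprints, and Dgka in both assays.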

Other observations

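The RNA columns without a suffix were set against the exon columns of the same libraries for each kinase. The count in the column without a suffix, as a percent of the exon column's count, differed between the kinases. The region behind either column is not given in the sources used here, so this is a ratio of columns and not a part of a whole. Over all genes it was 52.9% to 56.7% per library. Dgke had the lowest ratio, 35.2% ± 1.43 in controls and 34.8% ± 1.56 in KO mice (SD, n = 4 each), and Dgkk had 42.1% ± 3.44 and 46.4% ± 7.98. Dgkb and Dgkg were at 48.4% ± 4.45 and 49.9% ± 1.03 in controls. Dgkh (85.5% ± 1.08), Dgka (84.8% ± 2.59) and Dgkz (82.6% ± 1.31) had the highest ratios in controls, and Dgki, Dgkd and Dgkq lay between 62.3% and 76.1%. In KO mice Dgkg was at 49.9% ± 0.981, so its lower RNA level held for both kinds of column.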
